A study of Homo sapiens with 4 samples.

Results

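Voltage-gated ion channel subunits and their relatives were examined by class in cells labelled as the MDA-MB-453 breast cancer line, with and without TMEM9 knockdown. A gene was taken as a member when it was protein-coding and its symbol began with KCN, CACN or SCN and followed the naming pattern of a potassium, calcium or sodium channel subunit. In all, 135 of the 48162 genes in the table were members, out of 19211 protein-coding genes. Of these, 95 were potassium channel genes, 26 were calcium channel genes and 14 were sodium channel genes. The naming rule also takes in inward rectifier, tandem-pore and calcium-activated potassium channels, several of which open without a change in voltage.

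Each group held 2 libraries of total RNA. One group was labelled wild type (WT) and the other as carrying TMEM9 KD, and both were labelled as the same line. The TMEM9 protein sits in the membranes of lysosomes and late endosomes. The labels do not say how it was reduced, whether the knockdown cells were 1 clone or a pool, or what the WT cells received. Nor do they say that the libraries of a group are separate cultures, so the p-values below reflect variation among 4 libraries that could be technical. TMEM9 itself had 1120 and 1497 counts in the WT libraries and 51 and 78 in the knockdown libraries, and its log2 fold change was -4.37 (SE 0.126, edgeR adjusted p = 4.12e-52).

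The libraries held 15323843 and 18517337 counts in WT and 15960941 and 17065126 in TMEM9 KD. Levels are given as counts scaled to a common library total after TMM normalization (CPM), with mean ± SD over n = 2 libraries. Log2 fold changes are TMEM9 KD against WT, and adjusted p is the Benjamini-Hochberg value of the edgeR quasi-likelihood test over 14923 genes, called below 0.05. Over all genes tested, 57.7% were called, 28.7% higher and 29.0% lower in TMEM9 KD. In 77.6% of all genes tested both knockdown libraries lay on the same side of both WT libraries. A channel gene's count is read against these shares. As RNA was taken from whole cultures, fewer cells of a type and less RNA per cell cannot be told apart.

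Markers of the labelled line were checked. ERBB2, the HER2 receptor, stood at 63.7 ± 0.105 CPM in WT and 54.4 ± 1.55 CPM in TMEM9 KD. KRT8 and KRT18 were well counted. The epithelial genes EPCAM, with 4 to 9 counts a library, and CDH1, with 2 to 5, were near absent, as were KRT19 and SPDEF. Whether the cells were the labelled line was not tested. Of the 12 markers of the line 8 were tested, 3 of them higher and 4 lower in TMEM9 KD, beside 28.7% and 29.0% of all genes tested. MLPH had 78 and 66 counts in WT and 0 and 3 in TMEM9 KD, and GATA3 and FOXA1 were higher, at 2.56 ± 0.784 against 6.37 ± 0.631 CPM and 2.83 ± 0.153 against 7.88 ± 0.521 CPM.

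All 6 basal or mesenchymal markers were called, 3 in each direction, beside 57.7% of all genes tested called in either. The basal keratin KRT14 had 185 and 307 counts in WT and 0 and 0 in TMEM9 KD, and KRT5 15 and 15 against 0 and 0. COL3A1 went from 957 ± 13.3 to 31.1 ± 4.78 CPM. AXL went from 228 ± 8.64 to 731 ± 19.1 CPM. VIM, at 1350 ± 9.49 against 1796 ± 71.6 CPM, and CDH2, at 132 ± 2.05 against 241 ± 2.92 CPM, were higher too. The list summed to 2656 and 2708 CPM in WT and 2830.1 and 2767 CPM in TMEM9 KD. The part of these markers in the channel results below was not tested. The series text calls the profiles retinal, against the cell line in every label. Of 6 photoreceptor markers 4 had fewer than 10 counts over the 4 libraries. The list summed to 13.6 and 13.6 CPM in WT and 5.86 and 7.16 CPM in TMEM9 KD, most of it from OPN1SW. That gene had 195 and 235 counts in WT and 81 and 106 in TMEM9 KD (log2 fold change -1.24, edgeR adjusted p = 7.24e-10). NRL had 8 and 8 counts against 10 and 12 and was not called. Whether the cells were retinal was not tested.

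Voltage-gated channels are built around a pore-forming alpha subunit whose charged segments move with the membrane voltage and open a path for potassium, calcium or sodium. Auxiliary subunits do not form the pore. They set how many channels reach the surface and how fast these open and close. In epithelial cancer lines without action potentials, potassium channels set the resting potential and volume, and calcium and sodium channel subunits have been linked to calcium entry, migration and invasion.

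To place the members whose levels differed most, the 250 bases before the annotated start of 5 genes are shown, taken from RefSeq on GRCh38.p14 and written 5′ to 3′ on the gene's strand. CACNA2D1 and KCNK2 had the largest fitted rise and fall among the members, SCN9A the largest rise among sodium channels, and SCN4B and SCN2B are adjacent genes. Capitals mark the GC box GGGCGG on either strand, the core of SP-family binding sites.
CACNA2D1: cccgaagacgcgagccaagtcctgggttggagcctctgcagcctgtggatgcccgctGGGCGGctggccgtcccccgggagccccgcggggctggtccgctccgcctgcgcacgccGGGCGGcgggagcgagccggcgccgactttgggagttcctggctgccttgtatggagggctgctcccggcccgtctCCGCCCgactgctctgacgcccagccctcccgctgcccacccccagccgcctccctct
SCN9A: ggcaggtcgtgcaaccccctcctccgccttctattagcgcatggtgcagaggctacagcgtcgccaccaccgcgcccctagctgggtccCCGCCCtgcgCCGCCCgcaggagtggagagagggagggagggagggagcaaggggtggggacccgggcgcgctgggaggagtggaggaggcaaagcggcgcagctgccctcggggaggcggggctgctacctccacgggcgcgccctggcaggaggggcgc
KCNK2: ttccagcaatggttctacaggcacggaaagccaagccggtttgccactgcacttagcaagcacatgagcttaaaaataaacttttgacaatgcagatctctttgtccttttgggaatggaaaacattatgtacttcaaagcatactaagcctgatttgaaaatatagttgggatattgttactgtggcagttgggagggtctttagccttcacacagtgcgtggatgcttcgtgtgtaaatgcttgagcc
SCN4B: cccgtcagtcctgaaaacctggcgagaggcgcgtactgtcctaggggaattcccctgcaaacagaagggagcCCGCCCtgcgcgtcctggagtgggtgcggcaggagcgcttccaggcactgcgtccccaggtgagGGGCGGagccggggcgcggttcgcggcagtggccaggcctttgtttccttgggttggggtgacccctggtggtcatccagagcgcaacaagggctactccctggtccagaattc
SCN2B: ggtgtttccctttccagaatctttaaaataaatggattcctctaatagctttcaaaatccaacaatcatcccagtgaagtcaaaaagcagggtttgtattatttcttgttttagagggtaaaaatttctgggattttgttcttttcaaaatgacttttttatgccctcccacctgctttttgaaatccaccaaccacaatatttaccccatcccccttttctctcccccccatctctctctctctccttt
The CACNA2D1 window (chr7:82443957-82444206, minus strand) had 75.6% GC, 27 CpG and 3 GC boxes. The SCN9A window (chr2:166375945-166376194, minus strand) had 74.0% GC, 22 CpG and 2 boxes. At KCNK2 (chr1:215005292-215005541, plus strand, the outermost of 2 starts in the table) GC was 42.8%, with 4 CpG and no GC box. SCN4B (chr11:118145434-118145683, minus strand) had 66.0% GC, 17 CpG and 2 boxes, while SCN2B (chr11:118176640-118176889, minus strand) had 38.0% GC, 0 CpG and no box. CACNA2D1 and SCN9A rose and have CpG-rich windows, and SCN2B rose and has a window without CpG. The CCAAT box, the TATA box in its form TATAAA, and TTCAGCACC were searched too and occur in none of the 5 windows. The last of these is one arm of the element bound by REST, a repressor of neuronal genes.

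Over the class, the motif counts were set beside all promoters. Windows were available for 97 of the 135 members, 149 in all, out of 35116 windows. GGGCGG occurred in 74 member windows, or 49.7%, and in 42.6% of all windows. Among windows of members called higher it occurred in 9 of 18, and among those called lower in 12 of 25. CCAAT was present in 30.9% of member windows and 32.0% of all, and TATAAA in 7.38% and 10.7%. TTCAGCACC occurred in 3 member windows, 2.01%, 1 of them at KCNK3, and in 0.288% of all windows. Every search covered both strands.

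Many of these channel genes had few or no counts. No count in any library was found for 13 of the 135, and another 50 had 1 to 9 counts summed over the 4 libraries, so 63 were at or near 0. A further 23 had 10 or more counts but did not pass the count filter, which left 49 tested. The genes at 0 were KCNA3, KCNA5, KCNA6, KCNG3, KCNJ6, KCNK9, KCNK15, KCNK16, KCNK18, CACNA1H, CACNG1, CACNG2 and CACNG5. Members with at least 1 count numbered 82 and 85 in the WT libraries and 101 and 102 in the knockdown libraries. The like count over all genes was not made, so these numbers are not read as a result about channel genes.

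By class, 48 potassium, 12 calcium and 3 sodium genes were at or near 0. The cardiac and axonal potassium channel genes KCNQ1, KCNA1 and KCNA2 were near 0. So were the L-type calcium pores CACNA1D, CACNA1F and CACNA1S, the N-type pore CACNA1B, and the sodium pores SCN4A of skeletal muscle and SCN10A of sensory neurons. CACNA1C, the widely used L-type pore, had 0 and 2 counts in WT and 4 and 4 in TMEM9 KD, and CACNA1A, the P/Q-type pore, 9 and 3 against 7 and 4. Neither was tested.

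**Figure D1:**
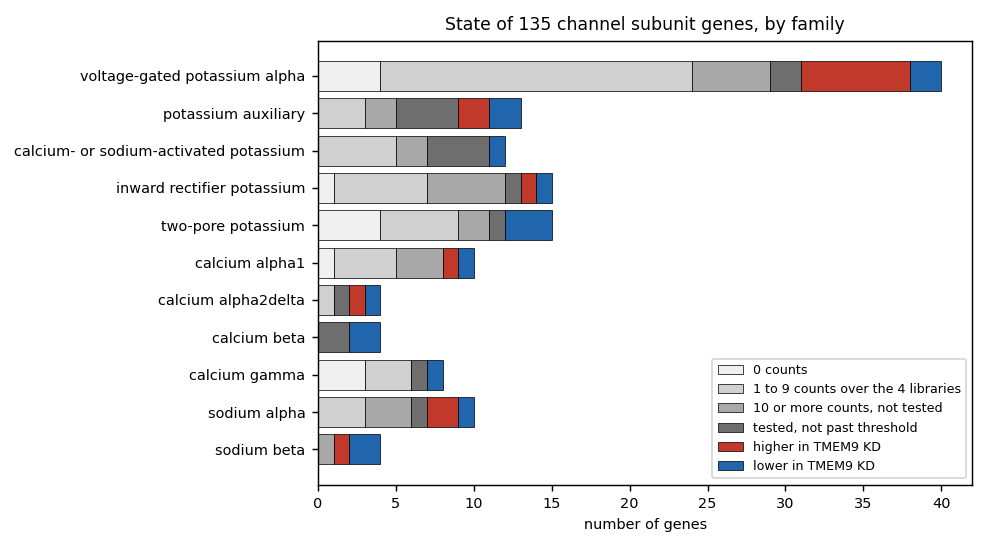
The number of channel genes in each state (horizontal axis) for each subunit family (vertical axis), from 0 counts through untested to tested, higher or lower. The voltage-gated potassium alpha family had 40 members with 24 at or near 0, and no calcium beta gene was at or near 0.

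Of the 49 tested members, 15 were called higher and 17 lower in TMEM9 KD, together 65.3%, beside 57.7% of all genes tested. In size, 12 were called at least 2-fold higher and 13 at least 2-fold lower, where 7.24% and 10.1% of all tested genes were. Their median log2 fold change was -0.16 and their median absolute log2 fold change 1.11, beside 0.01 and 0.38 over all genes tested. Such figures are not support for a difference of the class, since 16 of the 49 passed the filter through 1 group only, 10 through WT and 6 through TMEM9 KD. That selection favours a difference in the direction of the group that passed, and 12 of the 16 were called: CACNB4, KCNK2, KCNC4, KCNG2, SCN1A and SCN4B lower, and CACNA1I, CACNA2D1, KCNJ8, KCND2, KCNH5 and SCN2B higher. Of the 31 that reached the filter level of 0.606 CPM in all libraries of both groups, 20 were called. In 41 of the 49 the groups did not overlap, 17 higher and 24 lower, against 77.6% of all genes tested.

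Summed levels were set side by side by class. All sodium members summed to 18.0 and 18.1 CPM in the WT libraries and 41.2 and 41.2 CPM in the knockdown libraries. The sodium alpha genes alone summed to 7.42 and 7.12 CPM in WT and 36.4 and 35.3 CPM in TMEM9 KD, where SCN9A held most of the sum. All calcium members summed to 90.9 and 90.2 CPM in WT and 62.1 and 57.7 CPM in TMEM9 KD, and all potassium members to 351 and 343 CPM against 406 and 426 CPM. In each of these sums the groups did not overlap. Without KCNAB2 alone the other 94 potassium members summed to 290.1 and 289 CPM in WT and 286 and 293 CPM in TMEM9 KD, where the groups overlap.

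**Figure D2:**
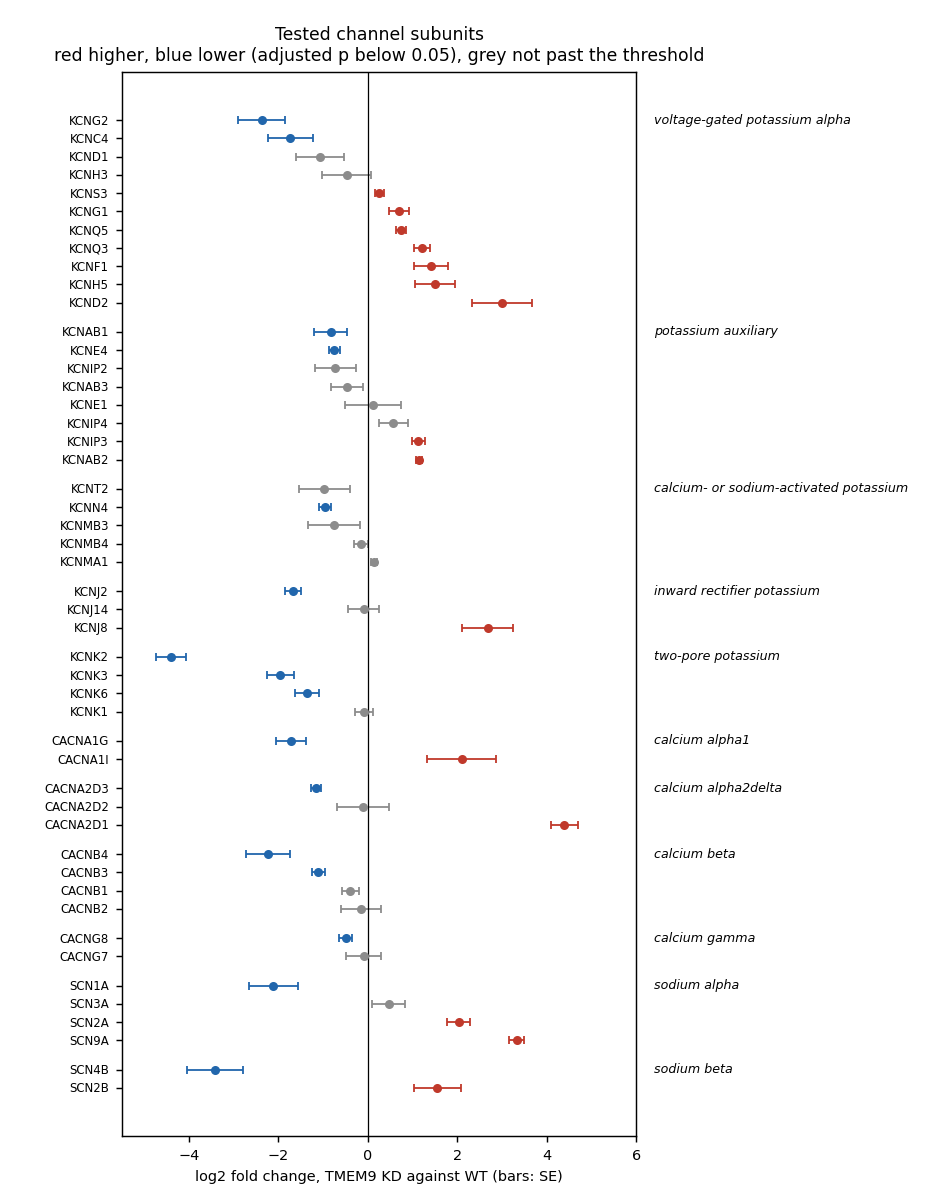
Log2 fold change of TMEM9 KD against WT (horizontal axis) for 48 of the 49 tested members, grouped by subunit family, with bars for the SE. Red points are called higher, blue points lower and grey points not called; both directions occur in 7 of the 11 families.

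Of 40 voltage-gated potassium alpha genes 11 were tested, and 7 of these rose and 2 fell. Over all genes tested, 28.7% were called higher and 29.0% lower. Of the called alpha genes, KCNG2, KCNC4, KCND2 and KCNH5 passed the filter through 1 group only. KCNS3, an electrically silent subunit that assembles with Kv2 pores, had the most counts per kilobase of exon of any member in WT, 11.1 CPM per kilobase, and 13.2 in TMEM9 KD. Its 31.5 and 37.7 CPM in WT and 44.1 and 38.8 CPM in TMEM9 KD lay apart by little. The rise was 0.25 on the log2 scale (SE 0.0962, edgeR adjusted p = 0.0188). KCNB2, one of the pores that silent subunits join, was near 0.

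KCNG1 and KCNF1, silent subunits too, were higher and KCNG2 was lower. KCNG1 stood at 3.08 and 4.51 CPM in WT and 4.95 and 7.39 CPM in TMEM9 KD (log2 fold change 0.69, SE 0.228, edgeR adjusted p = 0.00695). KCNF1 stood at 0.869 and 1.11 CPM against 1.89 and 3.44 CPM (1.42, SE 0.384, edgeR adjusted p = 0.00101). KCNG2 had 20 and 37 counts in WT and 4 and 7 in TMEM9 KD, a log2 fold change of -2.37 (SE 0.53, edgeR adjusted p = 6.93e-05). Groups that do not overlap were a condition for naming these 3 genes, and libraries of a group differed visibly. The KCNF1 call ended without KD_2 (log2 fold change 0.91, adjusted p = 0.152), the KCNG1 call without WT_1 (0.45, edgeR adjusted p = 0.166), without KD_2 (0.36, edgeR adjusted p = 0.259) and under DESeq2 (adjusted p = 0.0809). For KCNS3 it ended without WT_1 (0.13, edgeR adjusted p = 0.452), without KD_1 (0.16, edgeR adjusted p = 0.161) and under DESeq2 (adjusted p = 0.107), and without WT_2 its log2 fold change was 0.39.

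The M-current pores KCNQ5 and KCNQ3, which open slowly below the firing threshold and steady the membrane, were both higher. KCNQ5 was at 17.9 and 17.7 CPM in WT and 30.2 and 29.4 CPM in TMEM9 KD (0.75, SE 0.113, edgeR adjusted p = 1.39e-08). KCNQ3 was at 5.55 and 4.67 CPM against 12.2 and 11.5 CPM (1.22, SE 0.177, edgeR adjusted p = 4.41e-09). In both genes the libraries of a group lay close together, while groups apart were a condition for naming them. KCNH5, a pore of the ether-a-go-go family, went from 19 and 6 counts to 29 and 45 counts (1.49, SE 0.444, edgeR adjusted p = 0.00264), but its call ended without WT_2 (0.77, edgeR adjusted p = 0.216) and without KD_2 (1.18, edgeR adjusted p = 0.083), and its log2 fold change was 2.68 without WT_1. KCNC4, a fast Kv3 pore, went the other way, from 17 and 36 counts to 10 and 6 (-1.73, SE 0.502, edgeR adjusted p = 0.00203). That call ended without WT_2 (-1.25, edgeR adjusted p = 0.195) and without KD_2 (-1.38, edgeR adjusted p = 0.0601). KCND2, a Kv4 pore of A-type current picked out after its values were seen, had 4 and 1 counts in WT and 19 and 24 in TMEM9 KD (3.0, SE 0.663, edgeR adjusted p = 6.01e-05). KCND1 and KCNH3 were tested and not called. KCNH2, the cardiac hERG pore, was too scarce for the filter, with 12 and 11 counts in WT and 0 and 1 in TMEM9 KD, a WT to TMEM9 KD ratio of 22.4 (exact 95% interval 3.64 to 925, counting error only).

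Among 13 auxiliary potassium genes 8 were tested, with 2 higher and 2 lower, beside 28.7% and 29.0% of all genes tested. KCNAB2, a cytoplasmic Kv beta subunit with an oxidoreductase fold, was the clearest. It rose from 60.9 and 54.6 CPM to 121 and 133 CPM (1.14, SE 0.0745, edgeR adjusted p = 1.71e-25), and per kilobase of exon from 6.06 to 13.3 CPM, to the level of KCNS3. NPHP4 overlaps 1.16% of its exon length in GENCODE 29 and had a log2 fold change of -0.20. KCNIP3, a calcium-binding partner of Kv4 pores, was at 7.76 and 7.73 CPM in WT and 16.4 and 17.5 CPM in TMEM9 KD (1.13, SE 0.15, edgeR adjusted p = 2.33e-10). KCNE4, a single-span subunit that damps Kv currents, fell from 25.1 and 22.6 CPM to 13.6 and 14.7 CPM (-0.75, SE 0.124, edgeR adjusted p = 1.52e-07). As these 3 genes were named for having groups apart, the gap between their groups is a description. KCNAB1, picked out after its values were seen, was called lower although its groups overlapped (48 and 33 counts in WT, 31 and 16 in TMEM9 KD, log2 fold change -0.83, edgeR adjusted p = 0.0467). It lost the call without WT_1 (-0.40, edgeR adjusted p = 0.55) and without KD_2 (-0.40, edgeR adjusted p = 0.425), had -1.43 without KD_1, and gave adjusted p = 0.19 under DESeq2. KCNIP4, KCNIP2, KCNAB3 and KCNE1 were not called.

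Calcium-activated potassium channels open when calcium rises in the cell. KCNMA1, the large-conductance BK pore, was well counted and was not called. It stood at 98.1 and 93.8 CPM in WT and 102 and 109.5 CPM in TMEM9 KD (0.14, SE 0.0704, edgeR adjusted p = 0.0821). Its beta subunit KCNMB4 stood at 11.9 ± 0.213 and 10.7 ± 0.0175 CPM and was not called either (edgeR adjusted p = 0.385). KCNN4, the intermediate-conductance channel of epithelia and lymphocytes, fell from 24.7 and 23.5 CPM to 13.6 and 11.2 CPM (-0.96, SE 0.128, edgeR adjusted p = 2.78e-10). It had the most counts per kilobase of its family, 7.07 in WT and 3.64 in TMEM9 KD. The length used merges all annotated exons of a gene, 3408 bases for KCNN4 and 35644 for KCNMA1, which lowers KCNMA1 in this ranking. KCNN1, KCNN2 and KCNN3, the small-conductance channels, were near 0, and KCNT2 and KCNMB3 were tested and not called. So 1 of the 5 tested genes of this family was lower and 0 were higher at the adjusted threshold. Of all genes tested, 29.0% were lower and 28.7% higher.

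Inward rectifiers pass potassium into the cell more readily than out and hold the resting potential. KCNJ2, the strong rectifier Kir2.1, fell from 13 and 12.1 CPM to 4.09 and 3.78 CPM (-1.67, SE 0.184, edgeR adjusted p = 1.82e-13), with the libraries of each group close together. KCNJ16, its neighbour on chromosome 17, was scarce, with 5 and 9 counts in WT and 0 and 1 in TMEM9 KD, a ratio of 13.7 (exact 95% interval 2.08 to 578). KCNJ13 had 0 counts in both WT libraries and 12 and 2 in the knockdown libraries, at least 4.78-fold higher when WT is set to a floor of 3 counts over both libraries. GIGYF2, on the other strand and with 5678 counts, overlaps 24.3% of KCNJ13 exon length in GENCODE 29. As the strand setting of the counts is not stated, these few reads of KCNJ13 are uncertain. KCNJ8, the pore Kir6.1 of ATP-sensitive channels, was picked out after its values were seen, and went from 5 and 3 counts to 25 and 29 (2.67, SE 0.571, edgeR adjusted p = 3.32e-05). ABCC9, the sulfonylurea receptor that surrounds that pore and the next protein-coding gene on chromosome 12, was higher too, from 11.8 and 11.7 CPM to 32.4 and 31.6 CPM (1.45, edgeR adjusted p = 2.67e-19). The other pair of this kind, KCNJ11 and ABCC8, was near 0. Of 15 inward rectifier genes 3 were tested, and KCNJ14 was not called. GRWD1 overlaps 8.06% of KCNJ14 exon length on the same strand. Reads of KCNJ12 are uncertain, as KCNJ18 is almost identical to it.

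Tandem-pore channels carry the potassium leak. KCNK2, the mechanosensitive TREK-1 channel whose start is shown above without a GC box, had 111 and 164 counts in WT and 7 and 6 in TMEM9 KD. Its CPM went from 7.42 and 9.12 to 0.428 and 0.344, a log2 fold change of -4.41 (SE 0.335, edgeR adjusted p = 1.55e-21), the largest fall among the tested members. It passed the filter through the WT libraries only. KCNK3, the acid-sensitive TASK-1 channel, went from 4.68 and 5.40 CPM to 1.22 and 1.37 CPM (-1.95, SE 0.302, edgeR adjusted p = 2.66e-08). KCNK6, found in lysosomes and other inner membranes, went from 5.15 and 5.79 CPM to 1.77 and 2.46 CPM (-1.36, SE 0.263, edgeR adjusted p = 5.05e-06). Having groups apart was a condition for naming these 3 genes. KCNK1, the member of this family with the most counts per kilobase over the 4 libraries, stood at 6.10 ± 0.496 and 5.76 ± 0.199 CPM with overlapping groups (-0.09, SE 0.202, edgeR adjusted p = 0.736). The 15 tandem-pore genes summed to 24.1 and 27.9 CPM in WT and 10.3 and 10.7 CPM in TMEM9 KD.

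**Figure D3:**
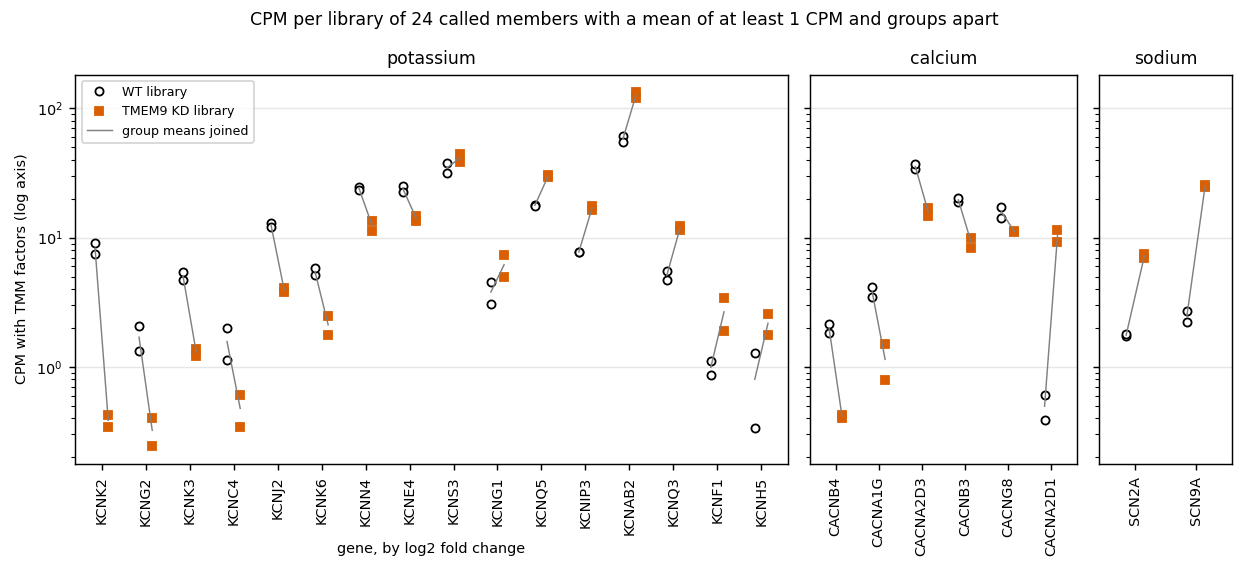
CPM on a log axis for 24 called members with a mean of at least 1 CPM and groups that do not overlap. Each point is 1 library, open circles for WT and squares for TMEM9 KD, with group means joined; KCNK2, CACNA2D1 and SCN9A have the steepest lines, and KCNS3 and CACNG8 nearly flat ones.

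For calcium channels, the pore genes had fewer counts in sum than the beta or alpha2delta genes. The 10 alpha1 genes summed to 5.15 and 4.84 CPM in WT and 3.05 and 2.92 CPM in TMEM9 KD, while the 4 beta genes alone summed to 31.2 and 31.5 CPM against 16.8 and 17.4 CPM. Per kilobase of exon the same order held, with 0.479 and 0.482 CPM for alpha1 and 4.10 and 4.17 CPM for beta in WT. Of 26 calcium genes 11 were tested, and 2 of these rose, 5 fell and 4 were not called. The shares over all genes tested were 28.7% higher and 29.0% lower.

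Both tested alpha1 genes are T-type pores, which open at low voltage. CACNA1G had 52 and 74 counts in WT and 13 and 26 in TMEM9 KD, and fell from 3.8 ± 0.452 to 1.14 ± 0.492 CPM (-1.72, SE 0.338, edgeR adjusted p = 7.21e-06). CACNA1I, picked out after its values were seen, passed the filter only through the knockdown libraries and had 5 and 0 counts in WT and 12 and 11 in TMEM9 KD (2.10, SE 0.769, edgeR adjusted p = 0.0152). The CACNA1I call rests on few counts: it ended without WT_2 (1.00, edgeR adjusted p = 0.431), without KD_1 (edgeR adjusted p = 0.113), without KD_2 (edgeR adjusted p = 0.0857) and under DESeq2 (adjusted p = 0.153), and without WT_1 the remaining WT library is at 0. CACNA1H, the other T-type pore, had 0 counts.

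The alpha2delta subunits are extracellular proteins that carry calcium channels to the surface and bind gabapentin in the case of CACNA2D1 and CACNA2D2. CACNA2D1 had 9 and 7 counts in the WT libraries and 188 and 161 in the knockdown libraries. Its level went from 0.602 and 0.389 CPM to 11.5 and 9.22 CPM, with a log2 fold change of 4.39 (SE 0.304, edgeR adjusted p = 5.61e-24), the largest rise among the tested members. It passed the filter through the knockdown libraries only. CACNA2D3 went the opposite way, from 34.2 and 36.9 CPM to 16.9 and 14.8 CPM (-1.17, SE 0.112, edgeR adjusted p = 4.23e-16). It nevertheless remained the calcium channel gene with the most counts per kilobase in TMEM9 KD, 3.39 CPM after 7.61 in WT. CACNA2D2, with 10 and 10 counts against 10 and 9, was not called, and CACNA2D4 was near 0. The 4 alpha2delta genes together thus summed to 35.4 and 37.9 CPM in WT and 29.4 and 24.6 CPM in TMEM9 KD.

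Beta subunits bind the inner side of the pore and protect it from degradation. CACNB3, the most abundant per kilobase of exon, fell from 18.9 and 20.2 CPM to 9.89 and 8.31 CPM (-1.11, SE 0.142, edgeR adjusted p = 7.3e-11). CACNB4 had 32 and 33 counts in WT and 7 and 7 in TMEM9 KD (-2.24, SE 0.489, edgeR adjusted p = 4.82e-05). CACNB1 was at 8.58 ± 0.641 and 6.5 ± 1.42 CPM and missed the threshold (edgeR adjusted p = 0.0594), and CACNB2 was not called. In all, 2 of 4 beta genes were lower, where 29.0% of all genes tested were. Among gamma genes, which include regulators of AMPA receptors, CACNG8 fell from 17.4 and 14.2 CPM to 11.3 and 11 CPM (-0.50, SE 0.143, edgeR adjusted p = 0.00186). That call ended without WT_1 (-0.36, edgeR adjusted p = 0.102). Its neighbours on chromosome 19 did not follow: CACNG7 was not called (24 and 30 counts against 25 and 27) and CACNG6 was near 0.

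Sodium channel genes were few, with summed levels higher in TMEM9 KD for the pores and lower for the beta subunits. Of the 14 genes, 3 were near 0 and 4 more did not pass the filter. Among the other 7, tested, 3 rose and 3 fell, beside 28.7% and 29.0% of all genes tested. The alpha genes are close paralogs, so some reads may have been counted for the wrong one, and whether the counts used strand is not stated by the labels.

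SCN9A, the Nav1.7 pore known from pain-sensing neurons, had 33 and 49 counts in WT and 417 and 428 in TMEM9 KD. It went from 2.21 and 2.73 CPM to 25.5 and 24.5 CPM (3.33, SE 0.173, edgeR adjusted p = 3.3e-32) and held most of the sodium alpha counts in TMEM9 KD. SCN2A, the Nav1.2 pore of central axons, went from 1.74 and 1.78 CPM to 6.96 and 7.45 CPM (2.03, SE 0.253, edgeR adjusted p = 2.53e-11). Both genes were named for having groups apart, so the gap between their groups is a description. SCN1A, the Nav1.1 pore of inhibitory neurons, picked out after its values were seen, fell from 23 and 24 counts to 6 and 5 (-2.11, SE 0.547, edgeR adjusted p = 0.000565). SCN3A was at 1.51 ± 0.411 and 2.08 ± 0.429 CPM and was not called (edgeR adjusted p = 0.285).

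SCN8A, the Nav1.6 pore of nodes of Ranvier, had 0 and 0 counts in WT and 7 and 7 in TMEM9 KD. It was at least 4.78-fold higher by the same floor. Without a filter on low counts it was called higher, with edgeR adjusted p = 0.0134. SCN8A was named for having 0 counts in WT, so this call is a description and no separate support. SCN11A, of sensory neurons, had 1 and 1 counts against 3 and 7, a ratio of 5.12 (exact 95% interval 1.09 to 48.1).

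Sodium beta subunits are single-span proteins of the immunoglobulin family that tune gating and act in adhesion. Their summed level went opposite to that of the alpha genes, from 10.6 and 11 CPM to 4.76 and 5.84 CPM. SCN4B and SCN2B, adjacent on chromosome 11, were picked out after their values were seen. Each passed the filter only through the group where it is high, so their opposite directions are a description. SCN4B had 20 and 35 counts in WT and 2 and 3 in TMEM9 KD (-3.42, SE 0.624, edgeR adjusted p = 1.54e-06). SCN2B had 9 and 6 counts against 21 and 25 (1.55, SE 0.518, edgeR adjusted p = 0.00747). Of the promoter windows printed above, that of SCN4B is rich in CpG and that of SCN2B has none. The SCN2B call ended without WT_2 (1.16, edgeR adjusted p = 0.179), without KD_2 (1.46, edgeR adjusted p = 0.0896) and under DESeq2 (adjusted p = 0.0766). SCN3B had 4 and 4 counts against 3 and 3 and was not tested.

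Several sodium pore genes are neighbours on chromosome 2. In RefSeq order they are SCN3A, SCN2A, then CSRNP3, GALNT3 and TTC21B, then SCN1A, SCN9A and SCN7A. SCN1A had a log2 fold change of -2.11 and SCN9A beside it 3.33, but SCN1A was picked out after its values were seen and passed the filter through the WT libraries only. SCN7A had 0, 0, 0 and 1 counts. Between the pores, CSRNP3 was called higher (0.76, edgeR adjusted p = 0.0279) and TTC21B was not (0.11, edgeR adjusted p = 0.394). An antisense gene overlapping 8.17% of SCN9A exons and 2.77% of SCN1A exons in GENCODE 29 had 3 counts in all 4 libraries together.

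**Figure D4:**
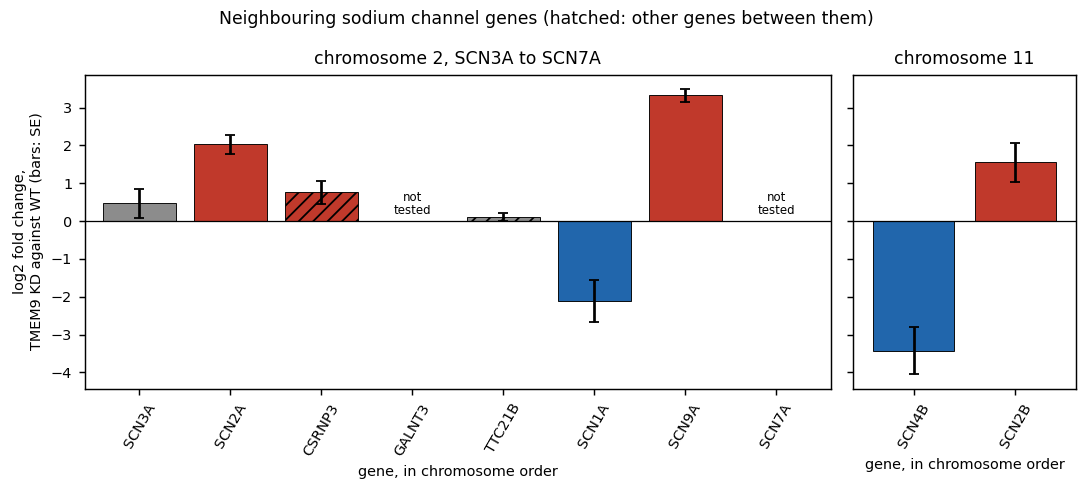
Log2 fold change of TMEM9 KD against WT (vertical axis, bars for the SE) for sodium channel genes and the genes between them in chromosome order, hatched where the gene is no channel. SCN1A at -2.11 stands between TTC21B and SCN9A at 3.33, and SCN4B at -3.42 stands beside SCN2B at 1.55.

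Because many of these channels are known from neurons, 10 neuronal markers were counted beside them. STMN2 and ELAVL3 had 0 counts, ELAVL4 0, 0, 0 and 1, and RBFOX3 4, 4, 5 and 7. SYT1, GAP43 and TUBB3 were called higher in TMEM9 KD, and SNAP25 and MAP2 lower. SYT1, a vesicle calcium sensor, went from 1.53 ± 0.671 to 10.9 ± 2.43 CPM, and SNAP25, of the vesicle fusion machinery, from 47.3 ± 0.992 to 14.6 ± 0.702 CPM. The list summed to 55.8 and 54.4 CPM in WT and 31.7 and 37.5 CPM in TMEM9 KD. The part of these genes in the channel results was not tested. Muscle markers were at or near 0 in 8 of 9, with sums of 0.401 and 0.334 CPM in WT and 0.916 and 0.286 CPM in TMEM9 KD. Endothelial markers other than PECAM1, for which no protein-coding row was found, summed to 0.0669 and 0.0556 CPM against 0.550 and 1.15 CPM.

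Partner genes of the channels were described from lists by role. Among 11 sodium channel partners 8 were tested, and 5 of these rose and 2 fell, beside 28.7% and 29.0% of all genes tested. Their median log2 fold change was 0.69, beside 0.01 over all genes. ANK2, the ankyrin that anchors channels in membranes, rose from 11 and 9.29 CPM to 27.4 and 33.6 CPM (1.60, edgeR adjusted p = 4.22e-20). FGF11 and FGF13, intracellular FGF homologs that bind the sodium channel tail, were both scarce in 1 of the groups. FGF11 had 20 and 21 counts in WT and 2 and 2 in TMEM9 KD (-3.32, edgeR adjusted p = 2.05e-05), and FGF13 had 1 and 2 against 12 and 15 (3.03, edgeR adjusted p = 0.000734). ANK3, the ankyrin of the axon initial segment, stood at 70.4 CPM in both groups and was not called (edgeR adjusted p = 0.991).

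Among 13 calcium channel partners 11 were tested, and 3 of these rose and 4 fell, beside 28.7% and 29.0% of all genes tested. Their median log2 fold change was 0.09. STAC2, an adaptor of L-type channels, fell from 20.5 and 21.9 CPM to 1.28 and 1.78 CPM (-3.78, edgeR adjusted p = 4.52e-32). RRAD, a small GTPase that restrains calcium channels through the beta subunit, fell from 37.9 and 35.8 CPM to 3.73 and 1.95 CPM (-3.71, edgeR adjusted p = 4.22e-38). CACHD1, related to the alpha2delta subunits, went from 1.45 ± 0.0689 to 0.206 ± 0.0325 CPM (-2.77, edgeR adjusted p = 3.83e-05). STAC and GEM, close relatives of the first pair, were called higher. Calmodulin genes share long stretches of sequence, so their calls are uncertain.

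Potassium channel partners were mostly at or near 0, 6 of 9, and besides ABCC9 only AMIGO1 was tested and was not called. LRRC55, a gamma subunit of the BK channel, had 9 and 11 counts in WT and 0 and 0 in TMEM9 KD, at least 6.51-fold lower with the floor applied to TMEM9 KD. Among 17 genes of other pore families, 12 were tested, and 2 of these rose and 4 fell, beside 28.7% and 29.0% of all genes tested. TPCN1, an endolysosomal cation channel, fell from 199 and 197 CPM to 96.1 and 96.8 CPM (-1.04, edgeR adjusted p = 1.54e-26). SCNN1A, the alpha subunit of the epithelial sodium channel, went from 2.91 ± 0.894 to 0.624 ± 0.154 CPM (-2.20, edgeR adjusted p = 3.6e-06).

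Store-operated calcium entry refills the endoplasmic reticulum through ORAI pores opened by STIM sensors. ORAI1 was listed too, but no protein-coding row with its symbol was found, so its level is not known here. ORAI2 fell from 108 and 105 CPM to 55.2 and 63.5 CPM (-0.85, edgeR adjusted p = 1.06e-17) and ORAI3 from 8.36 and 8.68 CPM to 3.05 and 3.67 CPM (-1.34, edgeR adjusted p = 4.15e-08). STIM2 rose from 32.2 and 33.2 CPM to 47.5 and 42.4 CPM (0.46, edgeR adjusted p = 1.7e-05), and STIM1 was not called. The 5 genes of the REST repressor complex, which holds neuronal genes silent in other tissues, were all tested. By edgeR 0 were called at the adjusted threshold, beside 57.7% of all genes tested. REST itself had a log2 fold change of -0.04 (edgeR adjusted p = 0.66). Only RNA levels were measured, and the part of REST in the channel results was not tested.

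**Figure D5:**
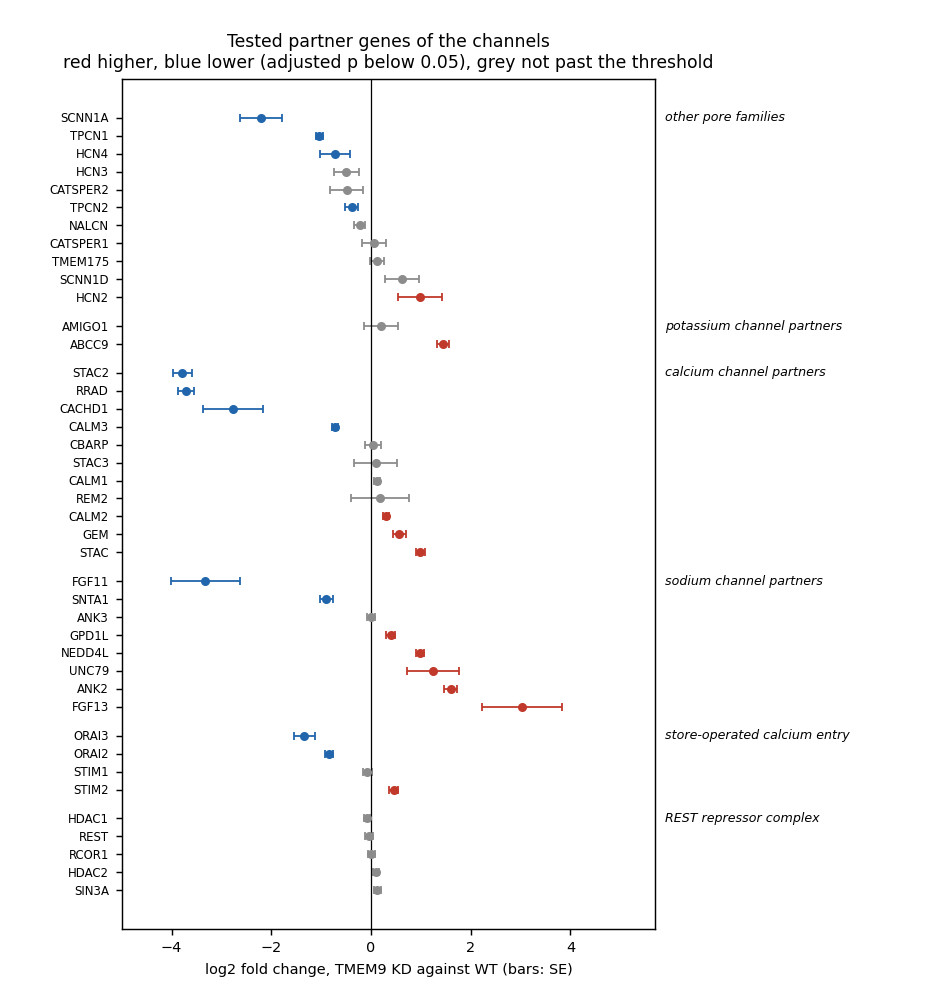
Log2 fold change of TMEM9 KD against WT (horizontal axis, bars for the SE) for 41 tested genes of 6 partner lists. Red points are higher, blue lower and grey not called, and not every tested gene is drawn. Among the genes drawn, STAC2, RRAD and FGF11 lie furthest to the left, FGF13 furthest to the right, and the REST complex genes stay near 0.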

How the data were processed

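Per the labels' protocols, RNA was column-purified and libraries followed an Illumina protocol. The authors deposited raw counts per gene for 48162 Ensembl genes in 4 libraries. Per the submitters' processing notes, the builds were hg19 and mm8 and the tools CASAVA and Bowtie 0.12.2, with no role stated. What counted the reads, on which annotation and with which strand setting is not stated. Symbols were looked up by Ensembl identifier in a list of gene names, with 304 taken from GENCODE. Exon lengths, with all annotated exons of a gene merged, came from GENCODE 29, and gene order and promoters from RefSeq.

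The counts were fitted with edgeR 4.0.16 (R 4.3.3): TMM scaling, the filterByExpr filter (10 counts in a library, 15 in all), group as the only term and the quasi-likelihood F test, adjusted by Benjamini-Hochberg over 14923 genes. SE was back-calculated from the fold change and F. The fit was tested on simulated counts. Alternatives were DESeq2 1.42.0, limma voom (limma 3.58.1), other scalings and filters, leaving out each library, and a replicate block.

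Values per library were given for called members with a mean of at least 1 CPM and groups apart, for the member of each family with the most counts per kilobase, and for members at 0 counts in 1 group with at least 10 in the other. From each partner list up to 3 called members with the largest change were named, and further list genes named after their values were seen are CSRNP3, TTC21B, LRRC55, ANK3, REST, GEM, STAC, ORAI2, STIM2 and the markers. Other members given with values outside this rule, such as KCNH2, KCNJ16, CACNA1A, CACNA1C and SCN11A, were chosen after their values were seen. The members and lists were chosen with earlier results of these data known. Libraries of a group differed by more than sampling noise (chi-square over degrees of freedom 2.04 in WT, 4.82 in TMEM9 KD) and were kept apart. Intervals cover counting error only. Protein sequences were not used here, and a few genes that the counts include are not reported here by name.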

Additional observations from a re-analysis of the deposited data

How the results depend on the processing

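The numbers of channel genes called per class kept within 1.5 times under most alternatives. For calcium genes called higher, 2 became 1 with a mean of at least 1 CPM and 1 under DESeq2, and 1 to 2 when each library was left out. For sodium genes, the 3 called higher became 5 without a filter and 2 to 3 when each library was left out, and the 3 called lower became 1 with a mean of at least 1 CPM, where only 4 sodium genes were tested. No call reversed. Of the 32 called members, 23 kept their call in every alternative that tested them. With the replicate number as a replicate block, 15 channel genes rose and 17 fell, as without it, and 4171 and 4266 of all genes. Same-numbered libraries did not deviate together (r = 0.000474), so the numbers are not taken as a pairing, and the block changed no class count. Without a filter 5 more members were called, among them KCNJ13 and SCN8A higher and KCNH2 and KCNK5 lower. Another scaling moved the median of all genes by at most 0.0742 on the log2 scale. Where 1 library was left out, the lone library of its group was assumed to vary like the other group. Depth limits the 86 members that did not pass the filter, of which 13 had 0 counts in every library.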
